A study of Dendroctonus valens with 12 samples.

Results

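Cytochrome P450s are heme enzymes that insert oxygen into their substrates, and in insects they take part in hormone synthesis and breakdown, in the handling of fatty acids and cuticular lipids, and in the oxidation of plant toxins. In bark beetles, some P450s are known for oxidizing resin terpenes, and some contribute to pheromone synthesis. *Dendroctonus valens*, the red turpentine beetle, feeds under pine bark and meets both resin and winter cold. The unigenes described here are 3 of the 58956 unigenes of its assembled transcriptome. All 3 are annotated as cytochrome P450, but annotation alone did not choose them. In the annotation rows available here, which are only part of the annotation, 6 further unigenes are named as a P450. The 3 were chosen with earlier results of these data known. The total of 58956 may include sequences of other organisms, since the study describes removing nematode sequences and which unigenes these were is not known here.

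The first, TRINITY_DN26703_c1_g3, best matched a cytochrome P450 4C1-like protein of *Dendroctonus ponderosae*, the mountain pine beetle. P450 4C1 was first described in the fat body of a cockroach and belongs to a family of fatty acid hydroxylases. The second, TRINITY_DN25602_c2_g1, matched a P450 49a1 of *D. ponderosae*, and Cyp49a1 of *Drosophila* belongs to the mitochondrial clan of P450s. The third, TRINITY_DN22207_c1_g2, matched CYP4BG2, a CYP4 family sequence obtained from *D. valens* itself. Each name rests on the best database match of an assembled sequence, and the 4C1-like match covered only a stretch of the protein, so this unigene may be a fragment of a longer transcript.

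RNA-seq was performed on 12 whole insects, 1 insect per library, with 3 insects in each of 4 groups. The groups were late-instar larvae collected in January (labelled cold), larvae collected in May (labelled normal), adults collected in January and adults collected in May. All were taken from the field, their sex is not stated, and temperature and the other seasonal differences between the months cannot be told apart. Levels are given in FPKM, which divides the fragments of a unigene by its length and by the mapped fragments of its library and so allows levels of different unigenes to be compared. In whole insects, fewer cells that express a unigene and less RNA per cell cannot be told apart.

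The libraries differed in ways that bear on the values below. The FPKM carry no read numbers, but the size of the smallest steps between low values put the relative depth of the libraries within a 1.55-fold range. The median FPKM of the 1418 unigenes with a *D. ponderosae* match was 2.91 to 4.83 in the January larvae and 3.48 to 5.59 in the adults, against 0.73 to 1.11 in the May larvae. The most abundant unigene made up 28.5% of the FPKM of May larva 3 and 4.84 to 15.1% of that of the other libraries. January larva 3 and May larva 1 shared 4823 unigenes that were under 0.1 FPKM in the other 4 larvae, and none of the 3 P450 unigenes was among them. The stage labels could not be checked by the markers available: a larval cuticle protein 8-like unigene lay between 0 and 2.20 FPKM in all 12 libraries, and the 5 odorant receptors lay at 5.90 FPKM or less in adults but reached 14.01 FPKM in a January larva.

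All 3 unigenes had higher mean levels in January than in May in both stages, but only for the 4C1-like unigene did the months not overlap in either stage. In larvae, TRINITY_DN26703_c1_g3 measured 40.7, 53.6 and 90.0 FPKM in January and 3.83, 14.2 and 1.41 FPKM in May. All January larvae lay above all May larvae, and the mean of 61.4 ± 25.5 FPKM (SD, n = 3) was 9.47-fold that of May, 6.49 ± 6.81 FPKM. In adults the same unigene measured 4.94, 40.0 and 27.3 FPKM in January and 2.33, 0.68 and 1.89 FPKM in May. These groups did not overlap either, although January adult 1 lay close to the May adults, and the mean of 24.1 ± 17.7 FPKM was 14.7-fold that of May, 1.63 ± 0.854 FPKM.

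The 49a1 match was low in 1 group only. TRINITY_DN25602_c2_g1 measured 17.04, 12.78 and 11.07 FPKM in January larvae and 0.50, 0.67 and 2.32 FPKM in May larvae. The highest May larva was below the lowest January larva, and the mean of 13.6 ± 3.07 FPKM was 11.7-fold the May mean of 1.16 ± 1.01 FPKM (SD, n = 3 each). In adults it measured 9.18, 11.3 and 5.76 FPKM in January and 9.04, 8.13 and 7.12 FPKM in May. The adult groups overlapped, with means of 8.74 ± 2.78 and 8.10 ± 0.960 FPKM.

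CYP4BG2 varied least of the 3 among larvae of a month. TRINITY_DN22207_c1_g2 measured 21.6, 25.5 and 22.7 FPKM in January larvae and 5.82, 8.48 and 6.47 FPKM in May larvae. These groups did not overlap, and the mean of 23.3 ± 1.996 FPKM was 3.36-fold the May mean of 6.92 ± 1.39 FPKM. In adults it measured 38.8, 29.6 and 7.83 FPKM in January and 10.1, 24.0 and 19.4 FPKM in May, and here the groups overlapped because January adult 3 was the lowest of all adults. The coefficient of variation in January was 8.58% among larvae and 62.6% among adults.

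**Figure D1:**
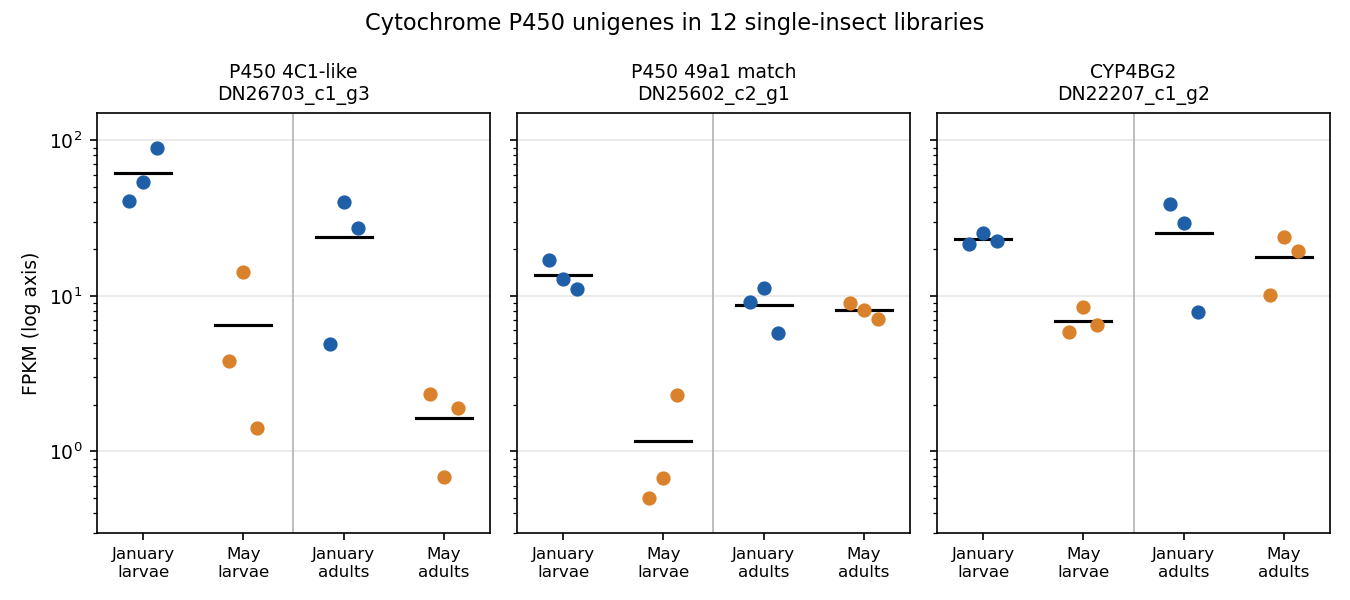
FPKM of the 3 P450 unigenes (log axis) in each of the 12 libraries, 1 point per insect, with January in blue and May in orange. Bars are group means of 3 insects. The May larvae are the lowest group for the 49a1 match and CYP4BG2, whereas the 4C1-like unigene is lowest in the May adults, at 0.68 to 2.33 FPKM.

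Ordered by mean, the 4C1-like unigene fell from January larvae through January adults and May larvae to May adults. January larvae and January adults did not overlap, with a 2.55-fold difference, whereas January adults overlapped May larvae and May larvae overlapped May adults. The order for the 49a1 match was January larvae, January adults, May adults and May larvae. January larvae overlapped January adults, the adult groups overlapped each other, and the May larvae lay apart from the other 3 groups. For CYP4BG2 the order was January adults, January larvae, May adults and May larvae, and of these neighbours only May adults and May larvae did not overlap. Exact two-sided permutation tests of the 18 pairs of group means gave p = 0.1 for the 10 pairs without overlap, the smallest p that 3 against 3 insects allow, and 0.18 after Benjamini-Hochberg adjustment over the 18 pairs.

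The question of the seasonal comparison was which transcripts differ between winter and spring insects of a stage. The test was limma on log2(FPKM + 1) over all unigenes that reached 1 FPKM in at least 3 libraries of the comparison, and a unigene was called different where its log2 fold change was 1 or more in size and its Benjamini-Hochberg adjusted p was under 0.01. In larvae all 3 P450 unigenes were called higher in January. Of all 11635 unigenes tested in larvae, 32.0% were called higher in January, and in 53.4% the January larvae lay wholly above the May larvae, so these calls were common. The log2 fold change was 3.40 ± 0.714 (SE) for the 4C1-like unigene TRINITY_DN26703_c1_g3, with an adjusted p of 0.00764 in limma. It was 2.83 ± 0.451 for the 49a1 match TRINITY_DN25602_c2_g1, adjusted p = 0.00287, and 1.63 ± 0.316 for CYP4BG2 (TRINITY_DN22207_c1_g2), adjusted p = 0.00575. The median over all unigenes tested was 1.26, so the 3 lay 2.14, 1.57 and 0.37 above it.

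The larval calls held only in part when 1 insect was left out. The 4C1-like unigene passed the thresholds without May larva 2 (adjusted p = 0.0070) and missed them without any other larva, with log2 fold changes of 2.79 to 4.12 over the 6 runs and adjusted p-values of 0.0182 to 0.0320 in those that missed. The 49a1 match missed them without January larva 1 (0.0103), May larva 1 (0.0142) or May larva 2 (0.0123), at log2 fold changes of 2.61 to 3.19 over the 6 runs. CYP4BG2 missed them without any 1 of the 6 larvae, at 1.52 to 1.76 and adjusted p-values of 0.0131 to 0.0245. None of the 18 signs could change, because the January and May larvae did not overlap for any of these unigenes. In this comparison the fits with 1 larva left out also passed fewer unigenes, 953 to 3380 against 4149 with all larvae.

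In adults 1 of the 3, the 4C1-like unigene, was called higher in January, beside 28.3% of the 23423 unigenes tested. Groups with January wholly above May were found in 45.2% of them. The log2 fold change of TRINITY_DN26703_c1_g3 was 2.91 ± 0.745 (adjusted p = 0.00989), 1.90 above the median of 1.02 over all unigenes. Without January adult 1, whose level was close to May, it was 3.75 (adjusted p = 0.00776), but without January adult 2 (0.0480), January adult 3 (0.0276) or May adult 1, 2 or 3 (0.0194, 0.0361 and 0.0304) the call was lost. The 49a1 match did not pass, with 0.06 ± 0.491 (95% interval -1.04 to 1.16), nor did CYP4BG2, with 0.31 ± 0.667 (-1.19 to 1.81). Both values lay below the median of all unigenes, by 0.95 and 0.71 on the log2 scale, and a missed threshold with intervals this wide does not show equal levels.

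**Figure D2:**
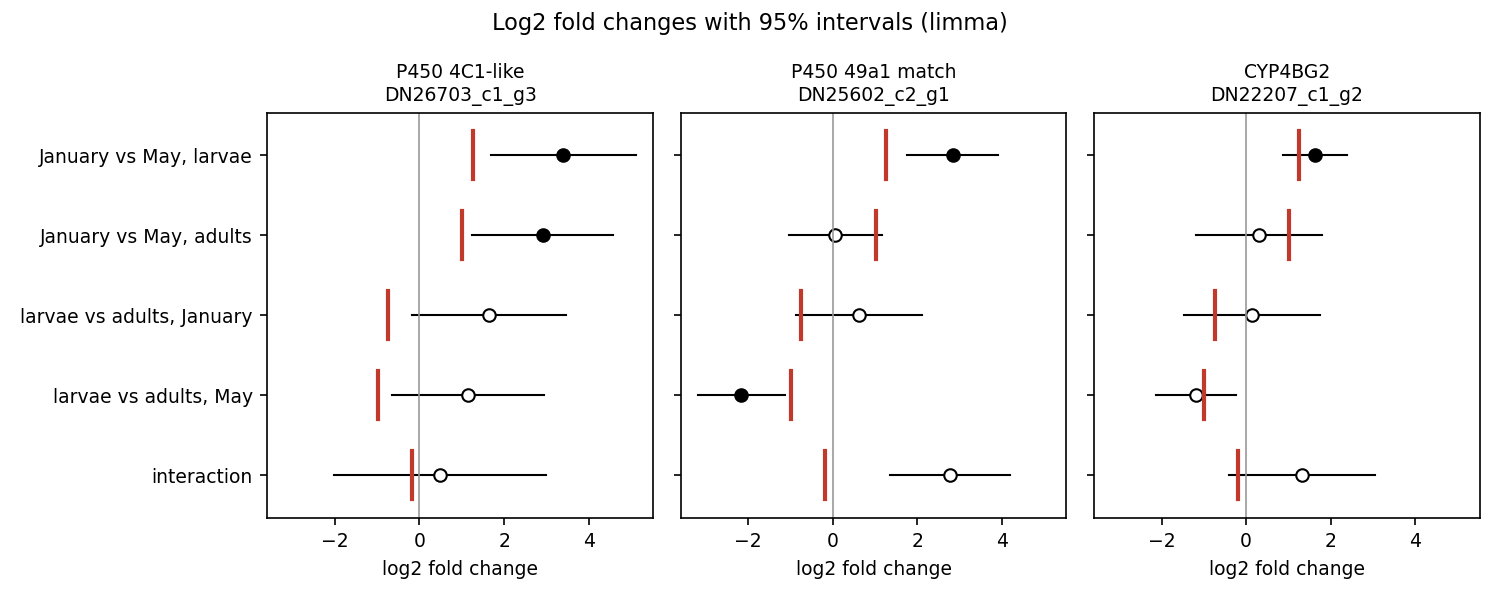
Log2 fold change (x axis) of the 3 P450 unigenes in the 4 pairwise comparisons and the stage by month interaction. Points are limma estimates with 95% intervals, filled where called, and the red bar is the median of all unigenes tested. The 3 larval estimates for January over May lie at 1.63 to 3.40, to the right of the median of 1.26, but the interval of CYP4BG2 includes that median.

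These calls depended on how the libraries were scaled. When libraries were scaled by the median of their unigene ratios (median-of-ratios scaling), the larval log2 fold changes were 2.17 for the 4C1-like unigene (adjusted p = 0.0528), 1.83 for the 49a1 match (0.0188) and 0.36 for CYP4BG2 (0.396). With the same scaling on *D. ponderosae* matches alone they were 2.25, 1.89 and 0.43, and again none was called. Scaling to equal FPKM sums, added after the data had been seen, left all 3 called, at 3.50, 2.92 and 1.83. In adults the 4C1-like unigene stayed positive under the 3 scalings, at 1.97, 2.85 and 2.70, without a call, and the adult values of the 49a1 match and CYP4BG2 changed sign under median-of-ratios scaling, to -0.98 and -0.81.

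**Figure D3:**
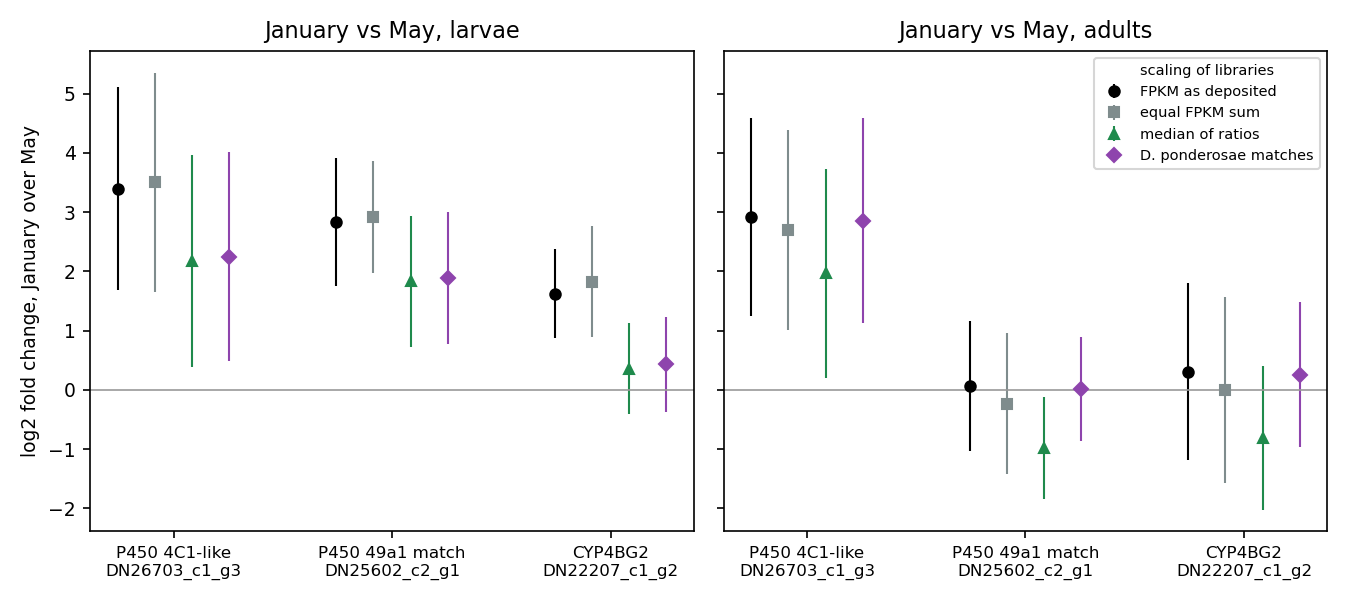
January over May log2 fold change (y axis, with 95% intervals from limma) of each P450 unigene in larvae and adults under 4 scalings of the libraries. The 4C1-like unigene is above 0 under all 4 in both stages, from 1.97 to 3.50, while larval CYP4BG2 falls from 1.63 to 0.36 and 0.43 under the median-of-ratios and *D. ponderosae* scalings.

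A measure that does not depend on scale is the position of each unigene among the 1418 *D. ponderosae*-matched unigenes of its own library. The 4C1-like unigene stood at percentiles 85.3, 91.2 and 94.3 in January larvae and 70.1, 81.3 and 53.6 in May larvae. In adults it stood at 54.4, 84.2 and 85.7 in January and 39.1, 25.6 and 37.1 in May. Neither pair of groups overlapped, as with the FPKM. The share of all unigenes without overlap in position was not computed, so here and below it only describes the unigene. The 49a1 match stood at 72.4, 73.9 and 68.5 in January larvae and 46.2, 44.6 and 61.2 in May larvae, also without overlap, and at 56.7 to 67.3 in all 6 adults. CYP4BG2 stood at 75.7, 83.7 and 80.5 in January larvae and 74.8, 75.8 and 73.8 in May larvae, where January larva 1 lay just under May larva 2. Its position among beetle transcripts overlapped between the months although its FPKM did not, beside the lower median FPKM of the May larvae given above.

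Larvae were also compared with adults of the same month. In January none of the 3 unigenes was called different, beside 0.0680% of the 23533 unigenes tested. The log2 fold change of larvae over adults was 1.64 ± 0.802 for TRINITY_DN26703_c1_g3, with an adjusted p of 0.217, and the median over all unigenes was -0.75. The January larvae of this unigene lay wholly above the January adults, which was the case for 6.32% of the unigenes tested. For the 49a1 match and CYP4BG2 the values were 0.61 ± 0.657 and 0.13 ± 0.711. The number of calls in this comparison depended on January larva 3, with 16 unigenes called with it and 7657 without it, and the 3 P450 unigenes were not called in either fit.

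In May the 49a1 match was called lower in larvae than in adults, beside 27.4% of the 15628 unigenes tested. Its log2 fold change was -2.16 ± 0.418 (adjusted p = 0.00728), while the median over all unigenes was -0.98, and its May larvae lay wholly below the May adults, as in 45.5% of unigenes. The call was lost without any 1 of the 6 insects, at -2.52 to -1.94 and adjusted p-values of 0.0101 to 0.0334. It was also lost under median-of-ratios scaling (-1.20, adjusted p = 0.0989) and *D. ponderosae* scaling (-1.27, 0.0839). CYP4BG2 was 2.58-fold higher in May adults by mean FPKM with no overlap, but its log2 fold change of -1.19 ± 0.386 did not pass (adjusted p = 0.0454), lay within 0.20 of the median and was 0.07 under median-of-ratios scaling. The 4C1-like unigene, at 1.15 ± 0.736, was on the opposite side of 0 from the median and did not pass either (adjusted p = 0.267).

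Whether the seasonal difference itself differed between stages was tested with the stage by month interaction over all 12 libraries. None of the 3 was called, beside 1.62% of 28117 unigenes. For the 49a1 match the larval log2 fold change exceeded the adult one by 2.77 ± 0.650 (95% interval 1.35 to 4.20). The adjusted p in limma was 0.0249. Thus the larval call and the missed adult call of this unigene are not shown to differ at the threshold of 0.01. Over the 12 runs with 1 library left out this interaction was 2.53 to 3.13. Its sign could not change there, since the larval change stayed at 2.61 to 3.19 and the adult one at -0.13 to 0.30. The interaction was 0.49 ± 1.14 for the 4C1-like unigene (adjusted p = 0.763) and 1.32 ± 0.784 for CYP4BG2 (0.278). Under median-of-ratios and *D. ponderosae* scaling all 3 were lower, at 1.85 and 1.89 for the 49a1 match (adjusted p = 0.104 and 0.0988), 0.032 and 0.086 for CYP4BG2, and -0.59 and -0.54 for the 4C1-like unigene, which changed sign. Without January adult 3 the CYP4BG2 interaction was 0.66.

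The available annotation held 6 further P450 unigenes, found by keyword, of which 4 (all but the second 4C1-like unigene and a mouse match) came from a list that the study had selected on these same libraries and so give no independent evidence of a direction. Of those tested, 1 of 5 was called higher and 1 lower in January larvae, where 32.0% and 3.63% of all unigenes were, with a median log2 fold change of 2.96 against 1.26. In adults 2 of 4 were called higher and 2 lower, where 28.3% and 4.30% of all unigenes were, with a median of 0.34 against 1.02. None of 5 was called between larvae and adults in January or in the interaction, and 1 of 3 was called, higher in larvae, in May, where 4.70% of all unigenes were. Unigenes that reached 1 FPKM only in the group where they were high had to differ to be tested, so these counts describe the unigenes and support no direction. None of the called log2 fold changes of the further P450 unigenes changed sign under the 3 scalings. With 1 library left out their signs could not change, because the groups compared did not overlap.

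A second 4C1-like unigene, TRINITY_DN25370_c0_g6, ran closest to the first. It measured 48.2, 80.9 and 131 FPKM in January larvae and 7.0, 10.03 and 0 FPKM in May larvae. In adults it measured 4.29, 44.5 and 44.8 FPKM in January and 0, 1.38 and 0.51 FPKM in May. January adult 1 was again the low January adult, and within neither stage did the months overlap. The log2 fold change was 4.19 ± 0.947 in larvae, just outside the threshold with an adjusted p of 0.01002, and 3.86 ± 0.845 in adults (adjusted p = 0.00525), where it was called in 4 of 13 alternatives (adjusted p 0.00359 to 0.0260). Whether these are separate genes or pieces of 1 gene was not tested, and reads from near-identical copies may have been divided between them.

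Another, TRINITY_DN22478_c0_g1, matching isoform X3 of a 4C1-like P450, measured 16.4, 6.02 and 98.1 FPKM in January larvae and 3.53, 4.66 and 0 FPKM in May larvae. In adults it measured 0.50, 58.6 and 23.0 FPKM in January and 0, 0.08 and 0 FPKM in May, and it was not tested there, since only 2 adult libraries reached 1 FPKM. January adult 1 was low for all 3 4C1-like unigenes. The larval log2 fold change of 2.96 ± 1.11 did not pass (adjusted p = 0.0608), with a wide spread among January larvae.

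Another unigene of the list, TRINITY_DN23160_c1_g5, carries a P450 domain but no gene name. It measured 12.5, 16.2 and 73.7 FPKM in January larvae and 5.93, 21.8 and 5.57 FPKM in January adults. In May it was listed at 0.10, 0 and 0 FPKM in larvae and at 0.06, 0 and 0 FPKM in adults. In each stage it reached 1 FPKM in the 3 January libraries alone, so it passed the filter only through the group where it was high, and its call in both stages adds nothing to these values.

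CYP4G56 ran the other way. CYP4G enzymes make the cuticular hydrocarbons that waterproof insects, as known from *Drosophila*. TRINITY_DN22103_c0_g1 measured 217, 239 and 274 FPKM in January larvae and 2103, 2148 and 1084 FPKM in May larvae. In adults it measured 31.7, 59.8 and 26.9 FPKM in January and 229, 350 and 161 FPKM in May. It was lower in January in both stages without overlap. The share of all unigenes with January wholly below May is not given here, so this only describes the unigene. The log2 fold changes were -2.81 ± 0.403 in larvae (adjusted p = 0.00208) and -2.63 ± 0.525 in adults (0.00382), and in May the larvae exceeded the adults by 2.85 ± 0.450 (0.00395). The calls between months were present in 10 of 14 alternatives in larvae, at -4.18 to -2.54, and in 7 of 13 in adults, at -3.78 to -2.34. The call between stages in May was present in 7 of 14 alternatives, at 2.13 to 4.23, and under 2 of the 3 scalings.

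A 4c3-like P450, TRINITY_DN24057_c1_g2, was lower in January adults. It measured 0.14, 0.29 and 0.45 FPKM there against 77.8, 40.1 and 35.4 FPKM in May adults, a log2 fold change of -5.25 ± 0.515 (adjusted p = 0.00129). In adults it too passed the filter only through the group where it was high, the May adults. In larvae it measured 5.17, 5.41 and 2.09 FPKM in January and 12.4, 24.1 and 3.78 FPKM in May, which overlapped, and did not pass (-1.24 ± 0.687, adjusted p = 0.172). The interaction of 4.01 ± 0.876 missed the threshold with an adjusted p of 0.0192. The last P450 unigene, TRINITY_DN9568_c1_g1, best matched mouse P450 4A10 and was listed at 0 in all libraries except the May larvae, at 0.96, 0.57 and 0.47 FPKM, and was not tested.

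**Figure D4:**
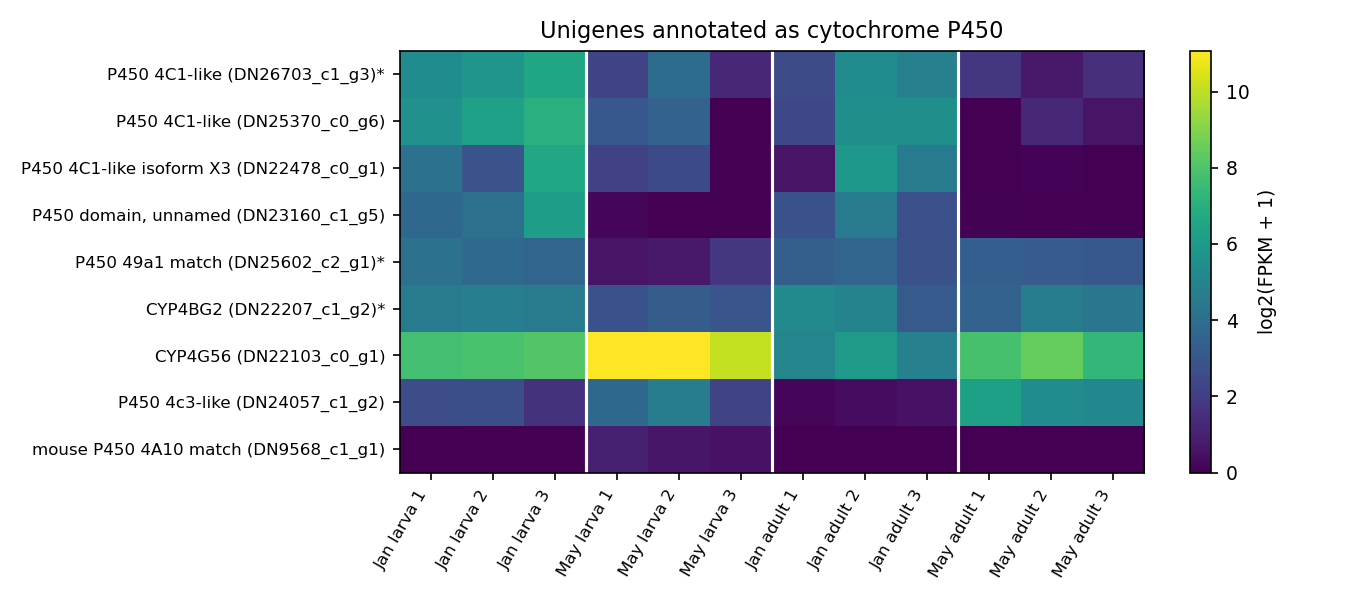
Heat map of log2(FPKM + 1) for the 9 unigenes named as P450 in the annotation rows available here (rows) in the 12 libraries (columns, grouped by stage and month). The 3 described in detail carry an asterisk. CYP4G56 is brightest in the May larvae, at 1084 to 2148 FPKM, where the 4C1-like rows and the unnamed P450 are dark.

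Resemblance over the 12 libraries was measured by Pearson's r of log2(FPKM + 1) among 649 unigenes with a named insect match. The libraries share the group structure and the shifts of the whole library described above, so these values only describe the pattern. The 4C1-like unigene was closest to the second 4C1-like unigene (r = 0.962), followed by a chaoptin-like unigene (0.912), named for a photoreceptor adhesion protein, and by follistatin (0.874), which binds activins. The 49a1 match was closest to EH domain-binding protein 1 (0.979), which acts in endocytic traffic, to a MAP7 domain-containing protein 1-like unigene (0.969), named for microtubule binding, and to MAP kinase kinase 4 (0.967). CYP4BG2 was closest to anaphase-promoting complex subunit 15-like (0.947), enhancer of mRNA-decapping protein 3 (0.927) and the MSS4 homolog (0.921). The nearest unigenes of the 49a1 match and CYP4BG2 shared their lowest group mean, in the May larvae. They were picked for likeness over these same libraries, so this is no separate result.

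Other unigenes of detoxification, 13 by keyword, included transferases that conjugate P450 products and transporters that export them. In larvae 1 of 9 tested was called higher and 1 lower in January, beside 32.0% and 3.63% of all unigenes. The ABC transporter G member 4-like TRINITY_DN26693_c0_g2 measured 40.0, 47.9 and 29.5 FPKM in January larvae and 1.34, 3.92 and 4.99 FPKM in May larvae (log2 fold change 3.26, adjusted p = 0.00203). The multidrug resistance-associated protein TRINITY_DN25195_c0_g1 measured 7.19, 3.43 and 2.38 against 48.95, 93.65 and 95.19 FPKM (-3.95, adjusted p = 0.00136).

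In adults 0 of 11 was called higher and 2 lower in January, beside 28.3% and 4.30% of all unigenes, with a median log2 fold change of -0.82 against 1.02. These were UDP-glucuronosyltransferase 1-8-like TRINITY_DN20903_c0_g1 (0.06, 0.72 and 0.18 against 8.94, 1.70 and 6.99 FPKM) and esterase E4-like TRINITY_DN19574_c0_g1 (0.60, 2.5 and 0.85 against 15.8, 5.75 and 17.6 FPKM). The first passed the filter only through the May adults, and these calls were present in 3 and 4 of 13 alternatives. Between larvae and adults none of 9 was called in January, and in May 2 of 11 were higher and 2 lower in larvae, beside 4.70% and 27.4% of all unigenes. The higher were UDP-glucuronosyltransferase 1-7C-like TRINITY_DN24570_c0_g1 (log2 fold change 4.40) and TRINITY_DN25195_c0_g1 (2.46), and the lower were TRINITY_DN19574_c0_g1 (-2.93) and TRINITY_DN26693_c0_g2 (-3.25). None of 11 was called in the interaction. No called value of a detoxification or hormone unigene changed sign under any alternative, but calls were lost. With 1 library left out these signs could not change, because the groups compared did not overlap. The larval and May calls of TRINITY_DN26693_c0_g2 and the May call of TRINITY_DN19574_c0_g1 each held under 1 of the 3 scalings, and the adult call of TRINITY_DN20903_c0_g1 and the May call of TRINITY_DN25195_c0_g1 each held under 2.

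For hormones, 2 unigenes were listed. Juvenile hormone epoxide hydrolase 1-like TRINITY_DN22746_c0_g1, which breaks down juvenile hormone, measured 3.62, 9.86 and 4.36 FPKM in January adults and 43.3, 61.2 and 31.6 FPKM in May adults (log2 fold change -2.79, adjusted p = 0.00355). In larvae it measured 16.6, 12.9 and 6.77 FPKM in January and 55.2, 156 and 18.6 FPKM in May. These groups did not overlap, but the change did not pass in limma (-2.17, adjusted p = 0.0521). The share of all unigenes with January larvae wholly below May larvae is not given here. The ecdysone receptor TRINITY_DN27540_c0_g1, a nuclear receptor of the moulting hormone, was called between stages in May, at 0.44, 0.34 and 0.53 FPKM in larvae against 9.24, 15.4 and 7.92 FPKM in adults (-2.99, adjusted p = 0.00219), and passed the filter only through the adults.

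The spread of CYP4BG2 among adults ran beside that of 2 of the 3 listed germline transcripts. The vitellogenin receptor match TRINITY_DN25457_c0_g1, a protein of yolk uptake by oocytes, measured 92.3, 82.8 and 0.26 FPKM in January adults 1, 2 and 3 and 0.14, 37.8 and 12.4 FPKM in May adults 1, 2 and 3. The testis-specific kinase 3 match TRINITY_DN35102_c0_g1 measured 12.8 FPKM in January adult 3 and 4.27 FPKM in May adult 1 and was listed at 0 in the other 4 adults. The sperm flagellar protein 2-like TRINITY_DN16533_c0_g1 measured 7.90 FPKM in January adult 3 and at most 0.23 FPKM in the other adults. That 0.23 FPKM was in May adult 1, near the 0.18 FPKM of January adult 1, so this transcript did not set May adult 1 apart. January adult 3 and May adult 1 were also the adults with the lowest CYP4BG2, at 7.83 and 10.1 FPKM against 19.4 to 38.8 FPKM in the other 4. Labels and methods do not state sex, and the part of sex or of germline tissue in the CYP4BG2 level was not tested. The 4C1-like unigene did not follow this split, since January adult 3 measured 27.3 FPKM and January adult 1 measured 4.94 FPKM.

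**Figure D5:**
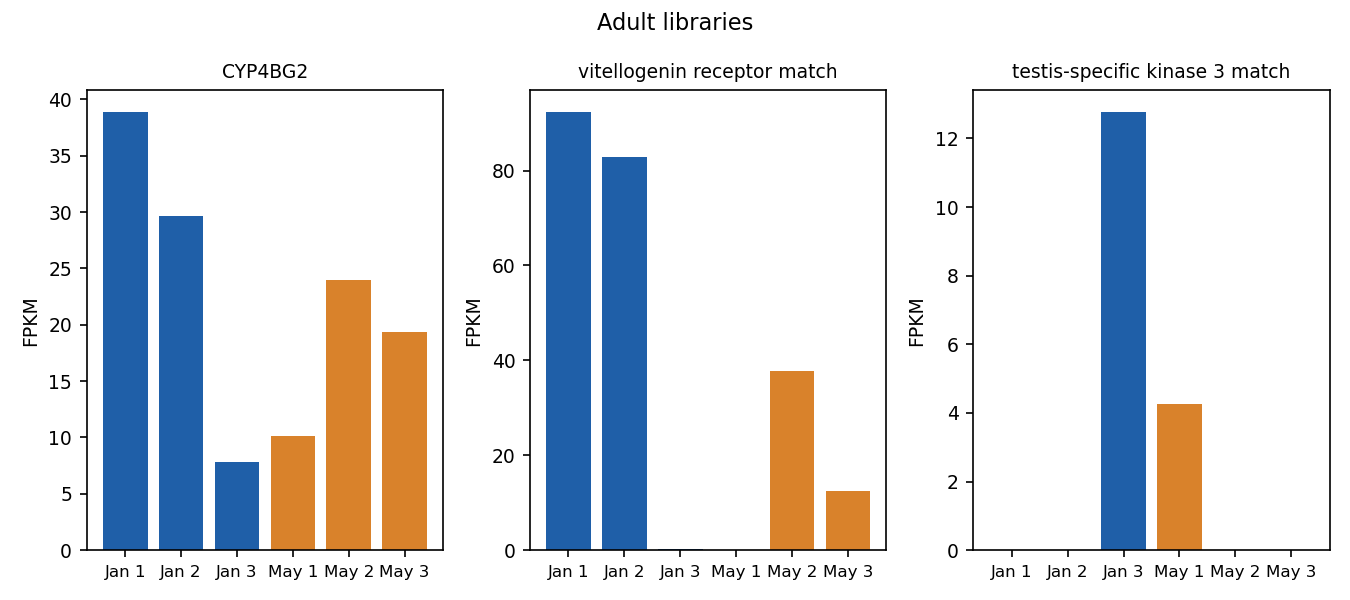
FPKM (y axes, from 0) of CYP4BG2, the vitellogenin receptor match and the testis-specific kinase 3 match in the 6 adult libraries, January in blue and May in orange. January adult 3 and May adult 1 have the lowest CYP4BG2 (7.83 and 10.1 FPKM), vitellogenin receptor at 0.26 and 0.14 FPKM and the only testis kinase values above 0. The sperm flagellar protein 2-like unigene, not plotted, was high in January adult 3 alone.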

How the data were processed

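Libraries were made from RNA of single whole insects. The authors deposited FPKM, computed with RSEM 1.2.31 from reads placed with Bowtie2 2.3.5.1 on a Trinity assembly, rounded to 2 decimals, with no scaling between libraries stated. FPKM carry no read numbers, so counting error could not be estimated. The SDs rest on the spread among 3 insects. The standard errors and p-values of limma rest on that spread drawn toward the spread of all unigenes tested at a similar level. They are thus set in part by other unigenes. Group means were compared by exact permutation tests, and log2(FPKM + 1) was fitted with limma 3.58.1 (R 4.3.3, trend option, two-sided), each pairwise comparison on its own 6 libraries and the interaction on all 12. A unigene entered with at least 1 FPKM in at least 3 libraries. Tables were made in Python 3.11.15 with scipy 1.17.1, pandas 2.3.3 and numpy 2.4.6, and plots with matplotlib 3.10.9. The fits were also run on simulated data, with changes larger than those of the 3 P450 unigenes in the main fits and no shift of whole libraries. That run therefore does not test the fits under the conditions met here. Stage and season label were read from sample titles, and the months from the study's methods. Replicate numbers were taken only to name insects. Whether the 3 insects of a group came from separate trees or broods is not stated, so p-values measure only the spread between these insects.

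Named are the 3 P450 unigenes, the other P450 unigenes, listed detoxification and hormone unigenes with a call, the markers, and for each P450 unigene the 3 with the highest correlation. The lists were drawn by keyword from the annotation rows available here, 1999 of them for database matches, which are only part of the annotation. The members and lists were chosen with earlier results of these data known. Alternatives were a pseudocount of 0.1, no filter, scalings by median of ratios over all unigenes or over those with a *D. ponderosae* match, scaling to equal FPKM sums, 1 fit of all 12 libraries, the replicate number as a block, each library left out, and January larva 3 and May larva 1 left out together.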

Additional observations from a re-analysis of the deposited data

How the results depend on the processing

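Besides the scalings and left-out insects given above, these alternatives moved a result. For the 4C1-like unigene in larvae, the January over May log2 fold change of 3.40 was still in the same direction but no longer called with a pseudocount of 0.1 (3.73, adjusted p = 0.0108 in limma), without a filter (0.0455), under median-of-ratios scaling (2.17, 0.0528), under *D. ponderosae* scaling (2.25, 0.0457) or without January larva 3 and May larva 1 together (2.98, 0.0754). The 49a1 match in larvae likewise missed the threshold without a filter (2.83, 0.0256), under both scalings (1.83 and 1.89, 0.0188 and 0.0181) and without both larvae (2.74, 0.0313). CYP4BG2 missed it without a filter (1.63, 0.0475), under both scalings (0.36 and 0.43, 0.396 and 0.331), in 1 fit of 12 libraries (1.63, 0.0248) and without both larvae (1.54, 0.0702). In adults the 4C1-like unigene missed it with a pseudocount of 0.1 (3.51, 0.0167), without a filter (2.91, 0.0354), under median-of-ratios (1.97, 0.0616), *D. ponderosae* (2.85, 0.0128) and equal-sum scaling (2.70, 0.0158) and in 1 fit of 12 (0.0307). In May the 49a1 match, larvae against adults, missed it with a pseudocount of 0.1 (-2.97, 0.0119), without a filter (-2.16, 0.0217), under both scalings (-1.20 and -1.27, 0.0989 and 0.0839) and without May larva 1 (-1.94, 0.0132).

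Uncalled values changed sign in a few cases: in adults the 49a1 match (0.06) to -0.98 and -0.24 and CYP4BG2 (0.31) to -0.81 and -0.0075 under median-of-ratios and equal-sum scaling, CYP4BG2 in May, larvae against adults (-1.19), to 0.074 under median-of-ratios scaling, and the 4C1-like interaction to -0.59 and -0.54 under median-of-ratios and *D. ponderosae* scaling. With 1 library left out in turn, the 4C1-like unigene ranged from 2.79 to 4.12 in larvae, from 2.36 to 3.75 in adults, and from -0.35 to 1.205 in the interaction. The 49a1 match ranged from 2.61 to 3.19 in larvae, from -0.13 to 0.30 in adults and from -2.52 to -1.94 between stages in May. CYP4BG2 ranged from 1.52 to 1.76 in larvae, from -0.12 to 0.97 in adults and from -0.53 to 0.56 between stages in January. The cause of these changes was not tested. Fits with fewer insects have fewer degrees of freedom, and the part of this in the changes was not tested either.

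Counts over all unigenes moved more. The 4149 calls in larvae were 374 without a filter, 2740 under *D. ponderosae* scaling, 0 without both larvae (5439 at unadjusted p under 0.05) and 953 to 3380 with 1 larva left out. The 7632 calls in adults were 4607 with a pseudocount of 0.1, 1829 without a filter, 1098 in 1 fit of 12 libraries and 39 to 9075 with 1 adult left out. Between stages in January the 16 calls were 5 with a pseudocount of 0.1, 5 without a filter, 6 under both scalings, 259 in 1 fit of 12 libraries, 7657 without January larva 3 and 1 to 7657 over all runs with 1 insect left out. Between stages in May the 5015 calls were 2064 without a filter, 3021 and 2988 under both scalings and 1566 to 3398 with 1 insect left out. The 455 interaction calls were 989 with a pseudocount of 0.1, 118 without a filter, 805 at equal sums, 248 without both larvae and 38 to 400 with 1 library left out. Under median-of-ratios scaling the larval calls were 1662 higher and 1141 lower in January, against 3727 and 422, and the adult calls 3242 and 2643, against 6624 and 1008.

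For insects with the same replicate number, the correlations of their deviations ran from -0.56 to 0.49. The highest was between May larva 3 and May adult 3. With 3 insects a group these correlations cannot show whether the numbers pair insects, and the main fits used no pairing. With the replicate number as a block, the larval values of 3.40, 2.83 and 1.63 had adjusted p-values of 0.0189, 0.0174 and 0.0313 in limma, the adult 4C1-like value of 2.91 had 0.0159 and the 49a1 value of -2.16 in May had 0.0261. The block left 0 calls in larvae (6419 unigenes at unadjusted p under 0.05), 21 between stages in May and 33 in the interaction. Values near 1 FPKM, such as the 49a1 match in May larvae, are compressed by the added 1, and with 3 insects a group no exact test could reach 0.05.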

Other observations

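A glutathione S-transferase-like unigene of the detoxification list, TRINITY_DN20955_c0_g1, measured 1743 FPKM in January larva 1 and 414 and 519 FPKM in the other January larvae, and between 127 and 405 FPKM in all other libraries. It was named after its values were seen. The carboxylesterase of that list, TRINITY_DN25925_c0_g5, was listed at 0.36, 0.35 and 0.39 FPKM in May adults, at 1.27 FPKM in January larva 1 and at 0 elsewhere.

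Testis-specific kinase 3 also measured 12.4 FPKM in January larva 3 and sperm flagellar protein 2-like 5.85 FPKM there, while the former was at most 0.32 FPKM and the latter at most 0.30 FPKM in the other 5 larvae. CYP4BG2 was 22.7 FPKM in that larva, between the 21.6 and 25.5 FPKM of the other January larvae, so the split seen among adults was not seen there. The odorant binding protein 18 match, listed as an adult marker, measured 56.9, 13.4 and 17.1 FPKM in January larvae and 0 to 12.6 FPKM in adults.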
